A study of Homo sapiens with 24 samples.

Results

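The genes described here are 4 of vitamin D metabolism and signalling in MCF10A cells under epidermal growth factor (EGF): CYP24A1, CYP27B1, VDR and RXRA. They were chosen by name, and each was represented by the probe set that carried no other gene symbol and had the highest mean over the 24 arrays. Each of the 4 genes had 1 such probe set, of 19460 probe sets with exactly 1 symbol for 18417 genes. The mean log2 level that served this choice was 5.95 for CYP24A1, 7.51 for CYP27B1, 8.17 for VDR and 8.94 for RXRA. Their identifiers on the array are 8067140, 7964535, 7962689 and 8159127 in the same order. All 4 probe sets entered every test, since no filter on low values was applied.

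MCF10A is a non-tumorigenic line of human mammary epithelium. The 24 arrays formed 12 groups of 2 replicates, from 3 transfections sampled at 0, 30, 60 and 120 min of EGF. Control cells received a non-targeting oligonucleotide (control), and the others received an oligonucleotide against either miR-671-5p (called si-miR-671) or miR-20a (called si-miR-20a), all with Oligofectamine. Cells of all groups were grown in medium with 5% horse serum, insulin, hydrocortisone, cholera toxin and 10 ng/ml EGF, and no label names added vitamin D. The dose of EGF in the time course, and whether the EGF of the medium was withdrawn before it, are not given in the sources used here. No group was kept without EGF for 30, 60 or 120 min, so EGF and the passing of time under the same handling cannot be told apart.

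The mature microRNAs at which the oligonucleotides were directed are shown because the transfections differ by them. The sequences are from RefSeq (GRCh38.p14), and the capitals mark the seed, bases 2 to 8. The first lies at chr13:91351072-91351094 and the second at chr7:151238449-151238471, both on the plus strand, and their seeds differ.
hsa-miR-20a-5p: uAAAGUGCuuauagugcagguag
hsa-miR-671-5p: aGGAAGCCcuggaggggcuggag
Neither mature microRNA was measured on these arrays, so how far each was lowered is not known from them.

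Vitamin D becomes a hormone, calcitriol, in its last activation step, which the enzyme CYP27B1 carries out in kidney and in many epithelia. Calcitriol binds the vitamin D receptor VDR, a nuclear receptor that pairs with a retinoid X receptor such as RXRA and acts at direct repeats of a short motif in target genes. CYP24A1, which inactivates calcitriol and its precursor, is the classical strongly induced target of that receptor pair, so its transcript is widely read as a mark of receptor activity and closes a negative feedback loop.

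Replicate arrays of a group correlated at 0.973 to 0.992 across probe sets, and array medians ran from 6.56 to 6.57. The 8 genes set as a check of the EGF response, FOS and DUSP6 among them, included 7 called as raised at 30 min and 8 at 60 and at 120 min, averaged over transfections. The mean level of 6 measured basal epithelial markers ran from 11.05 to 11.26 over the 12 groups, that of 10 luminal markers from 7.78 to 8.04, that of 10 fibroblast markers from 6.93 to 7.24 and that of 9 blood and endothelial markers from 6.56 to 6.82. Single luminal markers moved in opposite directions: FOXA1 rose by 1.27 and GATA3 changed by -0.60 at 120 min on average over transfections (limma adjusted p = 6e-09 and 0.00015). At 0 min FOXA1 was above control by 0.86 in si-miR-20a and 0.78 in si-miR-671 cells (limma adjusted p = 0.00089 and 0.0078), and CD24, also on the luminal list, by 0.36 in si-miR-20a cells (adjusted p = 0.033). Of the basal markers KRT14 was above control by 0.29 in si-miR-20a cells at 0 min (adjusted p = 0.027). The part of these markers in the results of the 4 genes was not tested. Both targeted transfections stood apart from control on many probe sets: 3.32%, 5.1%, 6.19% and 10.1% were called at 0, 30, 60 and 120 min for si-miR-20a, and 0.54%, 0.457%, 8.18% and 5.58% for si-miR-671.

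CYP24A1 had the widest range of the 4 genes. It began low in si-miR-20a cells and rose late and steeply there, it fell early and stayed low in si-miR-671 cells, and it showed no called change in control cells. In control cells the 2 arrays read 6.67 and 6.77 at 0 min, 6.28 and 6.40 at 30 min, 6.44 and 6.67 at 60 min and 6.58 and 6.36 at 120 min of EGF, all on the log2 scale. In si-miR-20a cells they read 5.58 and 5.30 at 0 min, 5.54 and 5.69 at 30 min, 5.26 and 5.02 at 60 min and 7.32 and 7.48 at 120 min. In si-miR-671 cells they read 6.15 and 6.40, then 4.84 and 5.56, then 5.48 and 5.37, and 4.75 and 4.80 at the last time. The si-miR-20a arrays of 120 min were thus above every other array, and the si-miR-671 arrays of 120 min below every other array.

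Ordered by group mean, the 12 CYP24A1 levels ran from 7.40 in si-miR-20a at 120 min to 4.78 in si-miR-671 at 120 min, a span of 2.62. Of the 11 neighbouring pairs in that order, 8 had overlapping arrays. The breaks were between si-miR-20a at 120 min and control at 0 min, between si-miR-671 at 0 min (6.28) and si-miR-20a at 30 min (5.61), and between si-miR-20a at 60 min (5.14) and si-miR-671 at 120 min. The 4 control groups and si-miR-671 at 0 min therefore formed an upper run without a gap, and 5 groups of transfected cells a lower one. Those 5 groups and si-miR-671 at 120 min had means below 5.75, the lower quartile of the mean levels of the tested probe sets. Detection calls were not used here, so how near these readings lay to the background signal is not known.

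**Figure D1:**
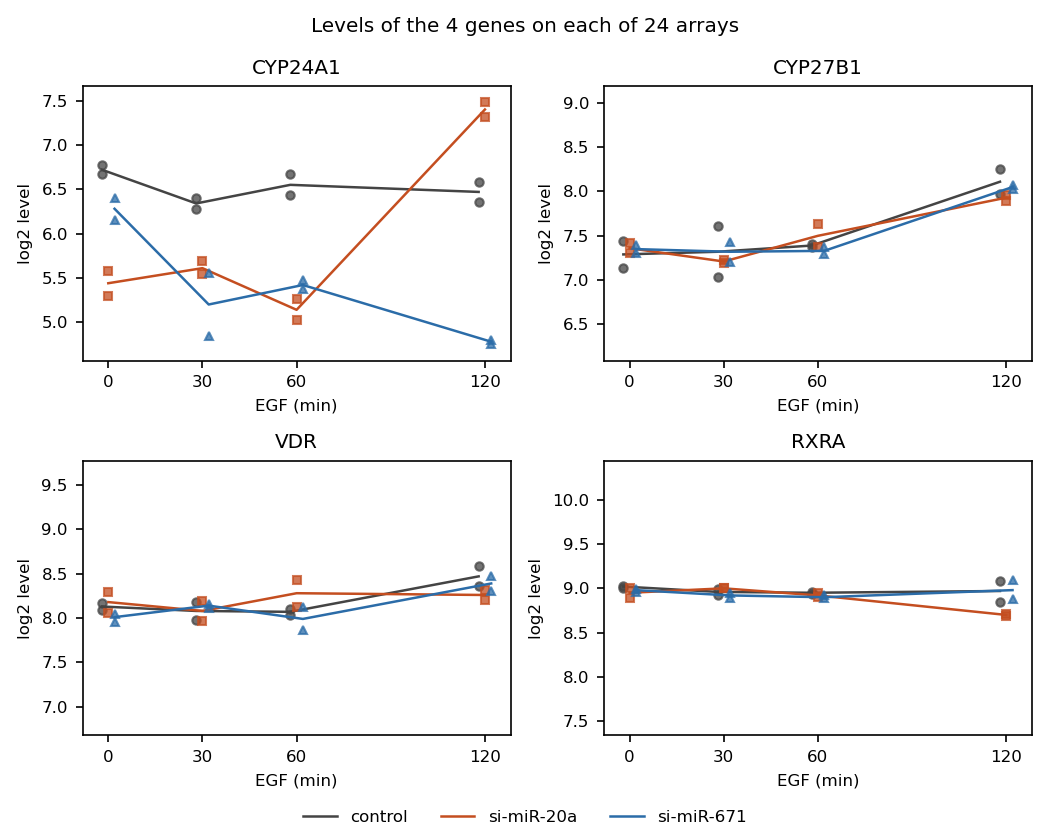
Log2 level of CYP24A1, CYP27B1, VDR and RXRA (y axis) against minutes of EGF (x axis). Points are the 24 arrays, shifted slightly sideways by transfection, and lines join the means of 2 arrays; each panel spans the same number of log2 units. For CYP24A1 the si-miR-20a line crosses that of control between 60 and 120 min, and that of si-miR-671 in every interval. At 120 min si-miR-20a reaches 7.40 and si-miR-671 reaches 4.78, while the 3 lines of CYP27B1 rise together.

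The start level was taken apart from the change. At 0 min the log2 level of CYP24A1 in si-miR-20a less that in control cells was -1.28 ± 0.19, or 2.43-fold lower (standard error of the model, n = 2 arrays per group, limma adjusted p = 0.0012). Both si-miR-20a arrays lay below both control arrays. CYP24A1 was the only one of the 4 genes called in that comparison, in which 3.32% of all probe sets were called. Between si-miR-671 and control cells the start differed by -0.44 ± 0.19 (limma adjusted p = 0.51), and none of the 4 genes was called, beside 0.54% of all probe sets. Between si-miR-20a and si-miR-671 cells it differed by -0.84 ± 0.19 (limma adjusted p = 0.06), with none of the 4 genes called, beside 0.529% of all probe sets. Under an unadjusted p of 0.05, CYP24A1 alone of the 4 passed in both of these, at 0.031 and 0.00043. The CYP24A1 start difference of si-miR-20a from control was called with each of the 4 arrays left out in turn (adjusted p from 0.0042 to 0.026). It was not called when only the groups compared entered the fit (adjusted p = 0.34), a fit in which 0 probe sets were called in this comparison.

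At 120 min the change of CYP24A1 from its own 0 min differed in direction between si-miR-20a and si-miR-671 cells. In control cells it was -0.38 ± 0.19, -0.17 ± 0.19 and -0.25 ± 0.19 at 30, 60 and 120 min (limma adjusted p = 1, 0.91 and 0.71), and none was called. In si-miR-20a cells it was 0.17 ± 0.19 at 30 min and -0.30 ± 0.19 at 60 min (limma adjusted p = 0.99 and 0.57). It then rose to 1.96 ± 0.19 above 0 min at 120 min, a 3.89-fold increase (limma adjusted p = 9.7e-06). The whole of that rise fell in the second hour, in which the level went up by 2.26 ± 0.19, or 4.8-fold. The increase was called without any one of the 4 arrays and in all 7 other settings tried for it.

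In si-miR-671 cells CYP24A1 fell at every time after 0 min. The change was -1.08 ± 0.19 at 30 min, 2.12-fold lower (limma adjusted p = 0.0093). At 60 min it was -0.85 ± 0.19, 1.81-fold lower (adjusted p = 0.025), and at 120 min -1.50 ± 0.19, 2.83-fold lower (adjusted p = 0.00013). All 6 later arrays lay below both arrays of 0 min. The 2 arrays of 30 min were 4.84 and 5.56, the widest gap between replicates of this gene. Without the lower of them the change at 30 min was -0.72 (adjusted p = 0.15), and without the second array of 0 min it was -0.96 (adjusted p = 0.18). The call at 60 min was lost with any one of its 4 arrays left out (adjusted p from 0.077 to 0.23), while that at 120 min was kept in each case. In the fit of only the groups compared the 3 calls were lost, with adjusted p of 0.88, 0.12 and 0.087.

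Within transfections, the share of all probe sets called in control cells was 0.334%, 0.791% and 2.96% at 30, 60 and 120 min, and 0, 0 and 1 of the 4 genes were called. In si-miR-20a cells it was 0.391%, 0.971% and 7.64%, with 0, 0 and 2 of the 4 called. In si-miR-671 cells it was 0.581%, 2.06% and 5.95%, with 1, 1 and 2 of the 4 called. CYP24A1 accounted for both early calls, and CYP24A1 and CYP27B1 for those at 120 min in both targeted transfections. Where limma called none of the 4 within a transfection, none had an unadjusted p under 0.05 either.

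Averaging CYP24A1 over the transfections joined changes of opposite sign at 30 and 120 min. At 60 min the changes were all negative, at -0.17 in control, -0.30 in si-miR-20a and -0.85 in si-miR-671 cells. The average was -0.43 ± 0.11 at 30 min (limma adjusted p = 0.13), -0.44 ± 0.11 at 60 min (adjusted p = 0.04) and 0.07 ± 0.11 at 120 min (adjusted p = 0.75). The exact permutation test within transfections, 216 arrangements with a smallest two-sided p of 0.0093, gave 0.074, 0.019 and 0.76. The call at 60 min held in 2 of 12 fits that each left out 1 array (adjusted p from 0.04 to 0.14). Without the si-miR-671 cells the average was -0.23 at 60 min (adjusted p = 0.42) and 0.85 at 120 min (adjusted p = 0.00052). Over all probe sets 0.766%, 2.66% and 13.4% were called in the averages at 30, 60 and 120 min, and 0, 1 and 2 of the 4 genes. At 30 min CYP24A1 alone of the 4 had an unadjusted p under 0.05 (0.0012).

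Because start and change both differed, the distance of CYP24A1 from control cells changed sign in si-miR-20a cells. There the log2 difference from control was -0.73 ± 0.19 at 30 min (1.65-fold lower, limma adjusted p = 0.036) and -1.42 ± 0.19 at 60 min (2.67-fold lower, adjusted p = 0.00037). At 120 min it was above control by 0.93 ± 0.19, or 1.91-fold (adjusted p = 0.006). In si-miR-671 cells the difference was -1.14 ± 0.19 at 30 min (2.21-fold lower, limma adjusted p = 0.014), -1.13 ± 0.19 at 60 min (2.19-fold lower, adjusted p = 0.0017) and -1.69 ± 0.19 at 120 min (3.23-fold lower, adjusted p = 9.7e-05). At each of these times CYP24A1 was the only one of the 4 genes called against control. The share of all probe sets called was 5.1%, 6.19% and 10.1% for si-miR-20a and 0.457%, 8.18% and 5.58% for si-miR-671 at 30, 60 and 120 min. Both calls at 30 min were fragile. That of si-miR-20a was lost without any one of its 4 arrays (adjusted p from 0.11 to 0.21), and that of si-miR-671 without either control array or without its own lower array, where the difference was -0.78 (adjusted p = 0.13). The si-miR-20a call at 120 min was lost without the higher si-miR-20a array (0.86, adjusted p = 0.069). In the fit of only the groups compared, 5 of these 6 calls were lost, all but that of si-miR-671 at 60 min.

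The test of the difference between responses set each change against the change in control cells over the 3 later times together. For CYP24A1 in si-miR-20a against control cells limma's moderated F gave an adjusted p of 0.015, first in rank of 19460 probe sets. Only 3 probe sets, 0.0154% of all, were called in that test: those of CYP24A1, of the prostaglandin synthase PTGS2 and of the cytokine IL24. Its 3 single differences were 0.56 ± 0.26 at 30 min, -0.14 ± 0.26 at 60 min and 2.21 ± 0.26 at 120 min, so the last time carried it. The call was lost when any of 4 arrays was left out: the first control array of 120 min (adjusted p = 0.11), the second (0.18), the second si-miR-20a array of 60 min (0.054) or the second of 120 min (0.22). For si-miR-671 against control cells the adjusted p was 0.27, at rank 191, with single differences of -0.70 ± 0.26, -0.69 ± 0.26 and -1.25 ± 0.26. None of the 4 genes was called there, beside 0.0514% of all probe sets, and CYP24A1 alone of them had an unadjusted p under 0.05 (0.0027).

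Set directly against each other, the si-miR-20a and si-miR-671 responses of CYP24A1 differed by 1.25 ± 0.26, 0.55 ± 0.26 and 3.46 ± 0.26 at 30, 60 and 120 min. The moderated F for this comparison, added after the values were seen, gave an adjusted p of 0.00017, again at rank 1, with 0.0771% of all probe sets called. It was called without each of the 16 arrays in turn. CYP24A1 was put forward with earlier results of these data known, so these ranks place it among all probe sets and are not independent support.

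CYP27B1, the activating enzyme, rose at 120 min in all 3 transfections and showed no called difference between them. In control cells its arrays read 7.44 and 7.14 at 0 min, 7.61 and 7.03 at 30 min, 7.37 and 7.41 at 60 min and 8.25 and 7.97 at 120 min. In si-miR-20a cells they read 7.42 and 7.31, then 7.19 and 7.23, then 7.63 and 7.37, and 7.96 and 7.89 at 120 min. In si-miR-671 cells they read 7.31 and 7.40, then 7.43 and 7.21, then 7.29 and 7.37, and 8.07 and 8.03 at 120 min. All 6 arrays of 120 min lay above all arrays of the earlier times, which overlapped with each other. In the order of its 12 group means, the 3 groups of 120 min came first, and the arrays of 9 of the 11 neighbouring pairs overlapped.

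Averaged over the transfections CYP27B1 rose by 0.69 ± 0.09 at 120 min, or 1.62-fold (limma adjusted p = 0.0001), and by the exact permutation test two-sided p was 0.0093, the smallest that test can give. This call was kept without each of the 12 arrays in turn and in all 9 other settings tried. At 30 and 60 min the average was -0.05 ± 0.09 and 0.07 ± 0.09 (adjusted p = 1 and 0.83). Within transfections the change at 120 min was 0.82 ± 0.16 in control (limma adjusted p = 0.0087), 0.56 ± 0.16 in si-miR-20a (adjusted p = 0.046) and 0.69 ± 0.16 in si-miR-671 cells (adjusted p = 0.018). The calls within si-miR-20a and within si-miR-671 were lost with any one of their 4 arrays left out (adjusted p from 0.11 to 0.18 and from 0.075 to 0.13). That within control was lost without its second array of 0 min (0.67, adjusted p = 0.14) or its first of 120 min (0.68, adjusted p = 0.13). All 3 were lost in the fit of only the groups compared.

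At 0 min CYP27B1 differed from control by 0.08 ± 0.16 in si-miR-20a and 0.07 ± 0.16 in si-miR-671 cells (limma adjusted p = 0.92 and 1). Its response differed from that of control with an adjusted p of 0.99 for si-miR-20a and 0.98 for si-miR-671. The single differences of the 120 min change were -0.26 ± 0.23 and -0.12 ± 0.23. The rise of the activating enzyme was thus measured in cells where CYP24A1 rose, fell or showed no called change.

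VDR, the receptor, moved less. In control cells its arrays read 8.09 and 8.17 at 0 min, 8.18 and 7.98 at 30 min, 8.10 and 8.03 at 60 min and 8.59 and 8.36 at 120 min. In si-miR-20a cells they read 8.29 and 8.06, then 8.19 and 7.97, then 8.43 and 8.13, and 8.32 and 8.20 at 120 min. In si-miR-671 cells they read 8.05 and 7.96, then 8.16 and 8.11, then 7.86 and 8.13, and 8.31 and 8.47 at 120 min. Arrays of 120 min were above those of 0 min in control and in si-miR-671 cells, whereas in si-miR-20a cells the times overlapped. All 11 neighbouring pairs in the order of its group means overlapped, over a span of 0.48.

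Averaged over transfections VDR rose by 0.27 ± 0.08 at 120 min, or 1.21-fold (limma adjusted p = 0.03, exact permutation two-sided p = 0.019), beside 13.4% of all probe sets called. The call held in 5 of 12 fits that each left out 1 array (change from 0.23 to 0.31, adjusted p from 0.023 to 0.087). Without the si-miR-671 cells the change was 0.21 (adjusted p = 0.19). Within transfections it was 0.34 ± 0.13 in control, 0.08 ± 0.13 in si-miR-20a and 0.38 ± 0.13 in si-miR-671 cells (limma adjusted p = 0.27, 0.8 and 0.12), and none was called. VDR at 0 min differed from control by 0.04 ± 0.13 in si-miR-20a and -0.13 ± 0.13 in si-miR-671 cells (limma adjusted p = 0.95 and 0.98). Neither response was called as different from control in the moderated F (adjusted p = 0.96 and 0.94).

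RXRA, the partner that VDR binds DNA with, had no called difference in any comparison. In control cells its arrays read 9.00 and 9.03 at 0 min, 8.92 and 8.99 at 30 min, 8.96 and 8.94 at 60 min and 9.08 and 8.85 at 120 min. In si-miR-671 cells they read 8.99 and 8.96, then 8.95 and 8.89, then 8.92 and 8.89, and 8.88 and 9.09 at 120 min. In si-miR-20a cells they read 9.00 and 8.89 at 0 min, 9.00 and 9.00 at 30 min, 8.95 and 8.90 at 60 min and 8.69 and 8.71 at 120 min. The si-miR-20a arrays of 120 min, where CYP24A1 was highest, were the lowest for RXRA, and the rest overlapped. The change of RXRA there was -0.24 ± 0.09 against 0 min (limma adjusted p = 0.11, unadjusted p = 0.013), and its distance from control at 120 min was -0.26 ± 0.09 (adjusted p = 0.07). That distance was called, at an adjusted p of 0.043, with low probe sets left out or with a trended robust prior, and at 0.028 (-0.38) without the second control array of 120 min. The span of the 12 RXRA group means was 0.32.

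**Figure D2:**
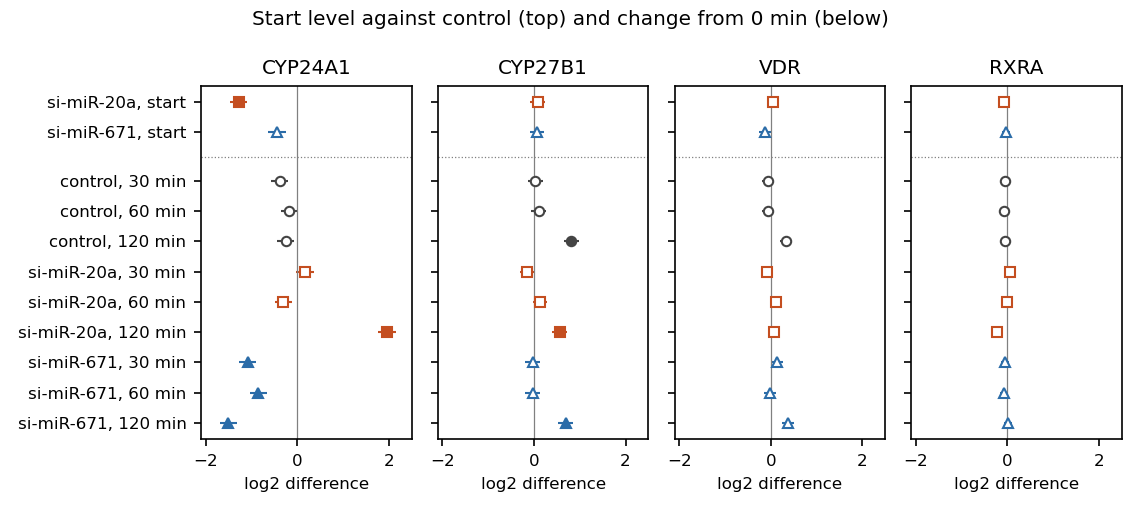
Differences in log2 level (x axis) with standard errors of the model for CYP24A1, CYP27B1, VDR and RXRA. The top 2 lines give the start level at 0 min against control, and the 9 lines below give the change from 0 min within each transfection; filled symbols are called by limma (adjusted p under 0.05) and open ones are not. CYP24A1 has 5 filled symbols on both sides of 0, from -1.50 to 1.96, CYP27B1 has 3 at 120 min, and VDR and RXRA have none.

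The genes around this loop came from lists of known roles and are given by counts, beside the same over all probe sets tested. Of 12 genes of vitamin D synthesis, transport and uptake, 9 were measured. CYP27A1, an enzyme that can make the calcitriol precursor, rose by 0.43 ± 0.11 at 120 min averaged over transfections (limma adjusted p = 0.015), and was not called without the first control array of 0 min (0.38, adjusted p = 0.054). LRP2, the uptake receptor megalin, rose by 0.55 ± 0.10 in si-miR-671 cells at 120 min (adjusted p = 0.0039), and was not called without the first si-miR-671 array of 0 min (0.43, adjusted p = 0.073). Limma called 0 of the 9 at 120 min in control and in si-miR-20a cells, beside 2.96% and 7.64% of all probe sets, and 2 and 1 had an unadjusted p under 0.05. With so few genes a count of 0 is near those shares. The group means of CYP27A1 ran from 4.65 to 5.37 and those of LRP2 from 5.12 to 5.67, below the lower quartile of 5.75. The median change of the 9 at 120 min was -0.03, -0.06 and -0.02 in control, si-miR-20a and then si-miR-671 cells, and that of all probe sets 0.00, 0.01 and 0.02.

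Of 14 receptor partners and coregulators, 11 were measured, and limma called none as raised at 120 min in any transfection or on average (unadjusted p was under 0.05, in either direction, for 1, 2 and 1 of them in control, si-miR-20a and then si-miR-671 cells). Over all probe sets 2.96%, 7.64% and 5.95% were called there, in either direction, and 13.4% on average. RXRB, another retinoid X receptor, fell by 0.61 on the log2 scale in si-miR-20a cells (± 0.18, limma adjusted p = 0.048). That call was lost without 3 of its 4 arrays, and without the second si-miR-20a array of 120 min the change was -0.26 (adjusted p = 0.54). On average over transfections RXRB changed by -0.33 ± 0.10 (adjusted p = 0.045, called in 3 of 12 fits that left out 1 array) and CREBBP, an acetyltransferase coactivator, by -0.23 (adjusted p = 0.014). Of 13 other receptors that pair with retinoid X receptors, 9 were measured. Among them RARG, a retinoic acid receptor, was called at 120 min, at -0.47 in si-miR-20a cells (adjusted p = 0.045). That call was lost without 3 of its 4 arrays, and without the second si-miR-20a array of 120 min the change was -0.25 (adjusted p = 0.48). At 0 min 0 of the 9, 11 and 9 genes of these 3 lists were called by limma between si-miR-20a and control cells, beside 3.32% of all probe sets, and 1, 1 and 3 had an unadjusted p under 0.05. In lists of this size 0 calls is near that share. NR1H3, of the third list, was called later between si-miR-20a and control cells. Its difference was -0.82 ± 0.22 at 30 min and at 120 min (limma adjusted p = 0.043 and 0.029), beside 5.1% and 10.1% of all probe sets. At 0 min it read 6.67 and 6.14 in si-miR-20a and 7.07 and 6.83 in control cells.

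Set among other known targets of the receptor, the late rise of CYP24A1 in si-miR-20a cells exceeded that of every measured one. Of 50 such targets 47 were measured. At 120 min 5 rose and 1 fell in control cells (2.96% of all probe sets called), 6 rose and 2 fell in si-miR-20a cells (7.64%), and 5 rose and 3 fell in si-miR-671 cells (5.95%). Their median change was 0.02, 0.14 and 0.06 in control, si-miR-20a and then si-miR-671 cells, beside 0.00, 0.01 and 0.02 over all probe sets. The largest rise was that of THBD, which encodes thrombomodulin, a surface inhibitor of clotting. It read 6.91 and 6.69 at 0 min and 8.15 and 7.92 at 120 min in control cells, 7.24 and 7.07 then 8.15 and 8.21 in si-miR-20a cells, and 7.16 and 7.12 then 8.12 and 8.20 in si-miR-671 cells. THBD thus rose by 1.24 ± 0.12, 1.02 ± 0.12 and 1.01 ± 0.12 (limma adjusted p = 1.2e-05, 6.6e-05 and 7.4e-05), a rise in all 3 where CYP24A1 rose in 1.

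TXNIP, an inhibitor of thioredoxin and of glucose uptake, fell in all 3 transfections, with log2 changes of -1.45 in control, -0.59 in si-miR-20a and -0.72 in si-miR-671 cells. GADD45A, a stress and growth arrest gene, rose by 0.53, 0.79 and 0.70. DUSP10, a MAP kinase phosphatase, was called in control (0.59) and si-miR-20a cells (0.74), and OSGIN1, a growth inhibitor, in control (0.66) and si-miR-671 cells (0.84). With 1 array left out, both calls in control cells were lost in 3 of 4 fits and the other two in 1 of 4. The OSGIN1 change in control cells was 0.42 (adjusted p = 0.28) without the first control array of 120 min and 0.90 without the second. ATP2B1, a calcium pump of the plasma membrane, rose by 0.92 ± 0.10 in si-miR-20a cells (limma adjusted p = 3.1e-05).

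CLMN, which encodes calmin and is listed as a receptor target, came nearest to the CYP24A1 pattern. It read 8.14 and 8.02 at 0 min and 8.58 and 8.65 at 120 min in si-miR-20a cells, 8.34 and 8.30 then 8.47 and 8.21 in control cells, and 8.34 and 8.32 then 7.95 and 8.23 in si-miR-671 cells. Its rise in si-miR-20a cells was 0.53 ± 0.11 (limma adjusted p = 0.0063), and its change was 0.02 ± 0.11 in control and -0.24 ± 0.11 in si-miR-671 cells (adjusted p = 1 and 0.22). The rise was not called without the second si-miR-20a array of 0 min (0.47, adjusted p = 0.055) or of 120 min (0.50, adjusted p = 0.069).

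At the start 2 of the 47 targets were higher and 3 lower in si-miR-20a than in control cells, beside 3.32% of all probe sets called, and their median difference was -0.06 against 0.00 over all. TMEM37, a membrane protein gene, was lower, as CYP24A1 was, at a difference of -0.77 ± 0.15 (limma adjusted p = 0.012, called in 2 of 4 fits that left out 1 array). Unlike CYP24A1 it read 5.96 and 5.71 at 120 min in si-miR-20a cells, a change of -0.15 ± 0.15 from 0 min. In si-miR-671 cells TMEM37 fell, as CYP24A1 did, with a change of -0.73 ± 0.15 at 120 min (limma adjusted p = 0.011). With 1 array left out that change ran from -0.86 to -0.60, and its call was lost in 3 of 4 fits. CEBPB, a transcription factor gene, was lower at -0.59 ± 0.15 and IGFBP3, an insulin-like growth factor binding protein gene, at -0.52 ± 0.12 (adjusted p = 0.042 and 0.03), and both calls held in 1 of 4 such fits. CDKN1A, the cell cycle inhibitor p21, was higher by 0.57 ± 0.09 (adjusted p = 0.0016). Between si-miR-671 and control cells 0 of the 47 were called by limma at 0 min, beside 0.54% of all probe sets, and 3 had an unadjusted p under 0.05. A count of 0 is near that share.

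**Figure D3:**
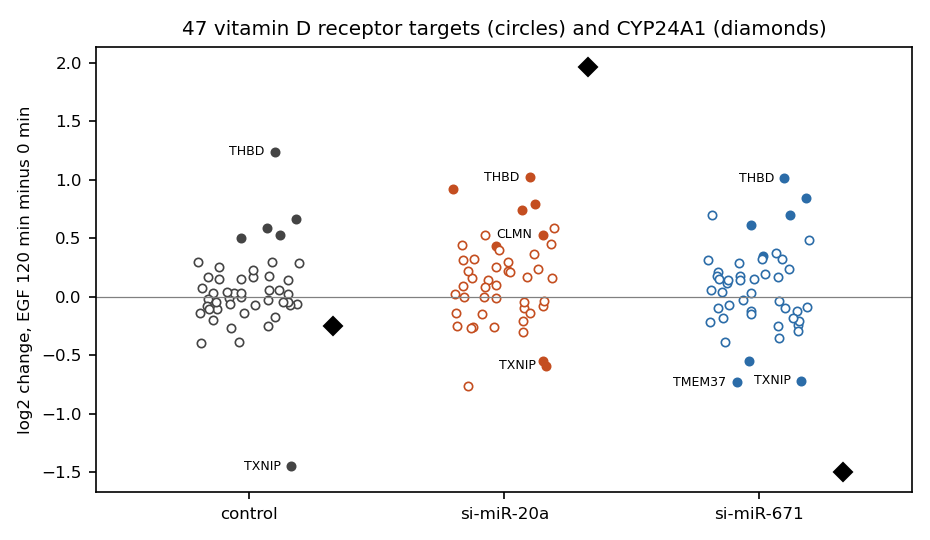
Log2 change at 120 min of EGF against 0 min (y axis) for 47 measured vitamin D receptor targets (circles, spread sideways for legibility) and CYP24A1 (diamonds) in each transfection (x axis); filled circles are called by limma (adjusted p under 0.05). CYP24A1 lies above all circles in si-miR-20a cells (1.96), below all in si-miR-671 cells (-1.50) and among them in control cells (-0.25).

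Of 15 factors reported to act at the CYP24A1 or VDR promoter 13 were measured. At 120 min 2, 4 and 6 of them were called as raised in control, si-miR-20a and then si-miR-671 cells, and none as lowered, beside 2.96%, 7.64% and 5.95% of all probe sets called in either direction. Both genes called in control cells rose in all 3 transfections: JUN, a subunit of the factor AP-1, by 1.14, 1.25 and 1.30, and SNAI2, a repressor reported at the VDR gene, by 1.09, 1.12 and 0.92. FOS, the partner of JUN, rose at 120 min by 0.69 in si-miR-20a and 1.02 in si-miR-671 cells, after a rise at 30 min of 3.69, 3.77 and 4.47 in control, si-miR-20a and then si-miR-671 cells. The call of FOS at 120 min in si-miR-20a cells was lost without either of 2 arrays (adjusted p = 0.071 and 0.058). ETS1, which acts with the receptor pair at CYP24A1, rose by 0.54 ± 0.08 in si-miR-20a cells (limma adjusted p = 0.0011). In si-miR-671 cells it rose by 0.33 ± 0.08 (adjusted p = 0.029). Its change in control cells was 0.20 ± 0.08 (adjusted p = 0.32), and on average it rose by 0.36 (adjusted p = 0.00012). JUND rose by 0.74 in si-miR-671 cells (limma adjusted p = 0.0047) and by 0.37 on average (adjusted p = 0.0065). With 1 array left out its change in si-miR-671 cells ran from 0.61 to 0.87, and its call there was lost in 2 of 4 fits. In si-miR-20a cells JUND was not called, and read 8.05 and 7.98 at 0 min and 8.09 and 7.73 at 120 min. SP1, also on this list, was not called against 0 min there. It read 9.15 and 9.11 at 0 min and 9.25 and 9.68 at 120 min in si-miR-20a cells. In control cells it read 9.10 and 9.25 then 9.00 and 9.10, and in si-miR-671 cells 9.14 and 9.24 then 9.14 and 9.00. CEBPB, lower at 0 min in si-miR-20a than in control cells, is on this list too. The part of these factors in the CYP24A1 levels was not tested.

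The gene table places BCAS1 and PFDN4 on either side of CYP24A1. Neither was called at 0 min between si-miR-20a and control cells or at 120 min in any transfection, and in si-miR-20a cells their change at 120 min was 0.44 ± 0.56 and -0.24 ± 0.22 (limma adjusted p = 0.74 and 0.61). The promoters of CYP24A1, CYP27B1 and VDR were not analysed here. For RXRA the RefSeq table held 2 promoters, each from 250 bases before to 50 after a start. A receptor hexamer (AGGTCA, or its forms AGTTCA, also GGGTCA, or lastly GGTTCA, on either strand) was in 1 of the 2 and in 38.6% of 35116 promoters. A direct repeat of these hexamers with 3 bases between was in neither and in 0.074% of all. With 4 bases between it was in neither and in 0.0854%, and the AP-1 motif TGAGTCA was in neither and in 4.95%.

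The genes most like each of the 4 were taken by Pearson's r over the 12 group means, among 9811 genes whose group means spanned at least 0.5. These are descriptions over means that share arrays by transfection and time. Most like CYP24A1 were CLMN (0.891), the cysteine protease CTSS (0.888), the synaptic scaffold DLG2 (0.859), the chloride exchanger CLCN4 (0.856) and the receptor MRGPRX3 (0.856). In si-miR-20a cells these 5 changed by 0.53, 0.28, 0.24, 0.19 and 0.55 at 120 min, and in si-miR-671 cells by -0.24, -0.44, -0.28, -0.34 and -0.24. Both sets of changes were smaller than the 1.96 and -1.50 of CYP24A1. The group means of DLG2 ran from 4.69 to 5.25, below the lower quartile of 5.75.

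**Figure D4:**
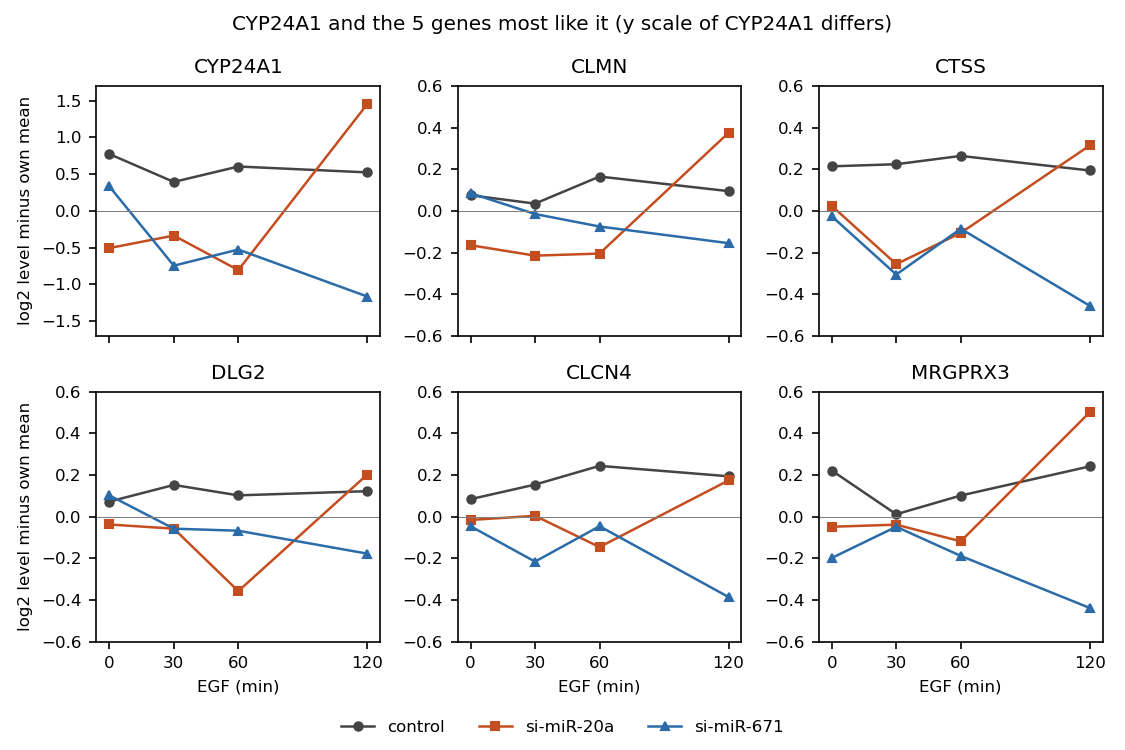
Group means of log2 level, each less the gene's own mean over 12 groups (y axis), against minutes of EGF (x axis) for CYP24A1 and the 5 genes with the highest Pearson correlation to it. The y scale of CYP24A1 is wider than that of the other panels; in all 6 panels the si-miR-20a line ends above the si-miR-671 line at 120 min.

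Most like CYP27B1 were SMURF2 (0.994), a ubiquitin ligase, DUSP7 (0.982), a MAP kinase phosphatase, and then CTTNBP2NL, SNAI2 and ST3GAL5 (0.976, 0.974 and 0.973). At 120 min DUSP7 changed by 1.21, 0.89 and 0.80 in control, si-miR-20a and then si-miR-671 cells. Most like VDR were FGFRL1 (0.931), a receptor-like relative of the FGF receptors, OR51T1 (0.912), METTL24 (0.879), CYP27B1 itself (0.876) and DUSP7 (0.865). The group means of OR51T1 ran from 3.81 to 4.35 and those of METTL24 from 2.34 to 3.34, below the lower quartile of 5.75. The 2 METTL24 arrays of si-miR-671 at 0 min read 3.05 and 1.63. VDR and RXRA themselves spanned 0.48 and 0.32, less than the 0.5 asked of the genes compared, so their correlations rest on small differences. Most like RXRA were NENF (0.936), GPER1 (0.925), LY6E (0.913), SGSM3 (0.911) and the ribosomal protein gene RPL36 (0.910), whose changes at 120 min in si-miR-20a cells were -0.44, -0.39, -0.48, -0.38 and -0.41. Among the 4 genes, r was 0.88 for CYP27B1 with VDR, and 0.12, -0.07 and -0.39 for CYP24A1 with CYP27B1, VDR and RXRA. Across the 12 group means, CYP24A1 was thus less like its receptor, the receptor's partner and the enzyme it opposes than CYP27B1 was like VDR.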

How the data were processed

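Affymetrix Human Gene 1.0 ST arrays were hybridised with RNA of 24 MCF10A samples. The authors deposited log2 values, 1 per transcript cluster (probe set), made with Affymetrix Expression Console per the submitters' processing notes; for its version, summarisation and normalization nothing is given in the sources read. The log base was read from the values (array maxima 13.0 to 13.2). The 33297 probe sets had 0 missing values. Of these, 19460 had exactly 1 symbol in the platform's gene table and were tested; 1754 with several and 12083 not listed were left out.

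All 24 arrays entered 1 limma 3.58.1 fit (R 4.3.3) with 1 mean per group, then eBayes (12 residual and 2.57 prior degrees of freedom, prior SD 0.136). P-values were adjusted over these 19460 by Benjamini-Hochberg, and an adjusted p under 0.05 is a call. Differences of the response were tested with the moderated F over 3 times. The fit was checked on simulated data. Tables and figures used Python 3.11.15, pandas 2.3.3, numpy 2.4.6 and matplotlib 3.10.9.

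The 4 genes and the lists were chosen with earlier results of these data known. Genes named are the 4, up to 4 called members of each list with the largest change, and the neighbours of CYP24A1. The 5 genes most like each of the 4 are named too. Members of lists named in addition are SP1, and CLMN, ETS1, GADD45A and TXNIP where they rank lower. The comparisons with control after 0 min, those between the 2 targeting oligonucleotides after 0 min and those of 120 with 60 min were added after values were seen. The labels call replicates biological, and nothing says whether they were separate cultures, transfections or days, so p-values measure the spread between these arrays, which may be partly technical. With 2 arrays against 2, such comparisons use a spread estimated from all 12 groups. No pairing by replicate number common to all groups was seen. Over 66 pairs of groups the correlation of replicate differences ran from -0.57 to 0.55, median 0.063, with 30 above 0.1. Some groups thus shared replicate differences, in the same or the opposite sense. The main fit did not model this, and pairing within some of the groups was not tested. Other settings were the replicate block, quantile normalization, median centring, leaving out low probe sets, all probe sets, a trended robust prior, only the groups compared, control and si-miR-20a alone, and leaving out each array. The exact permutation test of the averages was counted among them by its unadjusted p.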

Additional observations from a re-analysis of the deposited data

Results flagged for a closer look

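The EGF response of CYP24A1 in si-miR-20a cells differed from that in each other transfection by a test of the difference itself. Between si-miR-20a and control cells the moderated F of limma gave an adjusted p of 0.015, with a difference of 2.21 ± 0.26 at 120 min. Between si-miR-20a and si-miR-671 cells it gave 0.00017, with a difference of 3.46 ± 0.26 at 120 min. In both, each si-miR-20a array of 120 min lay above each array of the other transfection at that time. Between si-miR-671 and control cells the response was not called as different (moderated F, adjusted p = 0.27). CYP24A1 was put forward with earlier results of these data known, so these p-values are not independent support. The test between si-miR-20a and si-miR-671 cells was added after the values were seen.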

How the results depend on the processing

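The 4 genes gave 96 results, 19 of them called. Under 9 other settings 671 values kept direction and side of the threshold, 18 lost the call, 5 gained one and 2 turned sign. With 1 array left out the numbers were 524, 45, 2 and 53, the lone array being assumed to vary like the others.

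In the fit of only the groups compared, which has fewer arrays to set the spread, CYP24A1 lost its calls in si-miR-671 at 30 min (-1.08), 60 min (-0.85) and 120 min (-1.50), at the start in si-miR-20a (-1.28), and against control for si-miR-20a at 30 min (-0.73), 60 min (-1.42) and 120 min (0.93) and for si-miR-671 at 30 min (-1.14) and 120 min (-1.69). CYP27B1 lost those at 120 min in control (0.82), si-miR-671 (0.69) and si-miR-20a (0.56), and VDR its average (0.27, adjusted p = 0.065). With all probe sets tested, CYP24A1 lost its average at 60 min (-0.44, adjusted p = 0.056) and its distance from control in si-miR-20a at 30 min (-0.73, adjusted p = 0.061), and CYP27B1 its rise in si-miR-20a (0.56, adjusted p = 0.075). Over control and si-miR-20a alone, CYP24A1 was -0.23 at 60 min and 0.85 at 120 min, the latter then called, and VDR 0.21. With low probe sets left out or a trended robust prior, calls were gained for CYP24A1 between the 2 targeting oligonucleotides at 0 min (-0.84, adjusted p = 0.035 and 0.041) and for RXRA between si-miR-20a and control at 120 min (-0.26). Signs turned for the VDR average at 60 min under quantile normalization (-0.00054) and for RXRA in si-miR-671 at 120 min under median centring (-0.009). The cause of these changes was not tested.

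With 1 array left out, CYP24A1 ran -1.44 to -0.72 at 30 min and -0.98 to -0.73 at 60 min in si-miR-671, -0.55 to -0.31 and -0.49 to -0.39 in the averages at 30 and 60 min, from 0.82 to 1.04 and -0.80 to -0.65 for si-miR-20a against control at 120 and 30 min, and -1.50 to -0.78 for si-miR-671 against control at 30 min. The adjusted p of its response difference between si-miR-20a and control ran 0.013 to 0.22. CYP27B1 at 120 min ran 0.67 to 0.97 in control, 0.51 to 0.61 in si-miR-20a and 0.65 to 0.74 in si-miR-671, VDR from 0.23 to 0.31 on average, and RXRA from -0.38 to -0.15 for si-miR-20a against control at 120 min.

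CYP27A1 and LRP2 had no value with low probe sets left out. These uncalled values turned sign with 1 array left out. CYP27B1 ran at 30 min from -0.26 to 0.32 in control, -0.14 to 0.078 in si-miR-671 and -0.15 to 0.046 on average, and at 60 min from -0.044 to 0.25 in control and -0.072 to 0.022 in si-miR-671. Against control, CYP27B1 ran -0.072 to 0.22, -0.40 to 0.18 and -0.021 to 0.24 for si-miR-20a at 0, 30 and 60 min, and -0.081 to 0.21, -0.29 to 0.29 and -0.20 to 0.082 for si-miR-671 at 0, 30 and 120 min. Between the 2 targeting oligonucleotides at 0 min it ran -0.041 to 0.06. VDR ran at 30 min from -0.15 to 0.049 in control, -0.21 to 0.025 in si-miR-20a and -0.045 to 0.034 on average. At 60 min VDR ran -0.044 to 0.26 in si-miR-20a, -0.15 to 0.12 in si-miR-671 and -0.041 to 0.06 on average, and at 120 min from -0.034 to 0.20 in si-miR-20a. Against control, VDR ran -0.076 to 0.16 and -0.11 to 0.11 for si-miR-20a at 0 and 30 min, and -0.046 to 0.16, -0.21 to 0.061 and -0.20 to 0.026 for si-miR-671 at 30, 60 and 120 min. RXRA ran at 120 min from -0.17 to 0.063 in control and -0.10 to 0.11 in si-miR-671, at 30 and 60 min in si-miR-20a from -0.0018 to 0.11 and -0.08 to 0.035, and -0.053 to 0.00034, -0.10 to 0.14 and -0.086 to 0.028 for si-miR-20a against control at 60 min, si-miR-671 against control at 120 min and the 2 targeting oligonucleotides at 0 min.

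With the replicate number as a block no call of the 4 genes changed: CYP24A1 in si-miR-20a at 120 min was 1.96 (adjusted p = 1.8e-05) and its response difference from control had an adjusted p of 0.026. Counts over all probe sets moved more. In the fit of only its groups the average at 120 min had 1390 calls, not 2607; control had 10, 25 and 39 at 30, 60 and 120 min, not 65, 154 and 576; si-miR-20a 7, 6 and 55, not 76, 189 and 1486; si-miR-671 14, 50 and 1, not 113, 400 and 1158. Starts had 0, not 646, 105 and 103, and later differences from control 0, 0 and 44 for si-miR-20a, not 992, 1205 and 1958, and 0, 423 and 0 for si-miR-671, not 89, 1592 and 1086. With 1 array left out, si-miR-20a at 120 min had 472 (without its replicate 2 at 120 min) to 2690 (without its replicate 1), si-miR-671 at 60 and 120 min 144 to 198 and 508 to 717, and the starts 225 to 484, 4 to 31 and 3 to 118. The response difference of si-miR-20a from control had 0 to 15 then, 1 with the block and 12 with a trended robust prior, not 3; that of si-miR-671 from control had 3 to 18 then and 47 with the prior, not 10, and that between the 2 oligonucleotides 5 to 291 and 132, not 15. With 1 probe set per gene and 2 arrays per group, the number of arrays limits the precision.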

Other observations

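Some genes listed around the vitamin D loop were already called in the first hour of EGF. Over all probe sets 0.766% and 2.66% were called at 30 and 60 min on average over transfections. Of the 47 measured receptor targets, only GADD45A was called at 30 min within any transfection. JUN, an AP-1 subunit, had risen by 30 min, by 1.75 in control, 1.86 in si-miR-20a and 2.08 in si-miR-671 cells (log2, limma adjusted p = 2.3e-08, 1.3e-08 and 2e-09), and stood at 2.14, 2.11 and 2.20 above its start at 60 min. GADD45A, a receptor target by earlier literature, had risen by 0.69, 0.57 and 0.65 at 30 min (limma adjusted p = 0.0049, 0.029 and 0.005), and by 1.06, 1.09 and 1.10 at 60 min in the same order (limma adjusted p = 2.8e-05, 1.6e-05 and 1.2e-05). With 1 array left out, the 30 min calls of GADD45A were lost in 3 of 4 fits in control (adjusted p up to 0.099), 4 of 4 in si-miR-20a (0.14 to 0.27) and 1 of 4 in si-miR-671 cells (0.1), while its 60 min calls were kept in all 4 each. ETS2, another factor listed for the CYP24A1 or VDR promoter, rose at 60 min by 0.51 on average over transfections (limma adjusted p = 5.1e-05), a call kept without each of the 12 arrays in turn. CDKN1A rose at 60 min by 0.38 on average (limma adjusted p = 0.00025), also kept without each of 12 arrays. CYP24A1, CYP27B1 and VDR showed no called rise at 30 or 60 min in any transfection.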
